A study of Argopecten irradians with 2 samples.

Results

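The 133 large contig clusters of the bay scallop gill transcriptome were described, each as the sum of its contigs. A cluster is a group of assembled transcripts of similar sequence that share an ID prefix starting with CL, and a contig is 1 member sequence. A cluster was counted as large where at least 8 of its contigs were listed in the deposited comparison of the libraries, and no measured change entered this choice. Of 6445 clusters, 133 (2.06%) were large, and they held 1476 of the 16853 listed cluster contigs (8.76%). A further 42835 listed unigenes were singletons, so that the series comprised 49280 units in all, made from 59688 unigenes.

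The gills came from bay scallops (*Argopecten irradians*) bought at a market and kept in seawater tanks. One library was made from control scallops, which received the solvent dimethyl sulfoxide (DMSO) alone, and 1 from scallops held with 500 nM okadaic acid (OA) dissolved in DMSO for 48 h. Each library pooled gill RNA of 18 individuals according to the series description. The libraries held 11522064 (control) and 11607306 (OA-exposed) estimated reads, here fragments that RSEM assigned to unigenes in the form of expected counts. With 1 library per group no value below has a replicate check, and the effect of the exposure and differences between the animals pooled cannot be told apart. All intervals given are exact conditional 95% intervals for counting error only, and they do not cover the way RSEM divided reads among contigs of similar sequence. The IDs carried no gene names in the files used, so the gill label could not be set against marker genes and the clusters are described by number.

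Okadaic acid is a polyether toxin of dinoflagellates that inhibits serine/threonine protein phosphatases and accumulates in filter-feeding bivalves. The gill draws in water and sorts food particles, and so is among the first tissues in contact with dissolved toxin. In an assembly made without a genome, a cluster of similar transcripts may hold splice forms of 1 gene, alleles of different animals in a pool, or members of a gene family. A sum of reads over the cluster does not depend on how reads were divided among its contigs, while the values of single contigs do. A sum of FPKM also depends on it, because each contig's reads are divided by its own length.

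The large clusters had a median of 10 listed contigs. Of the 133, 79 had 8 to 10 contigs, 35 had 11 to 14 and 19 had 15 or more, of which 8 had 20 or more. The largest was CL5544 with 42 contigs. An ID is listed only with a value above 0 in at least 1 library, and in 77 of the 133 clusters every contig number up to the highest was listed. The most numbers were missing from CL218, whose 11 listed contigs carried numbers up to 26. Contig length ranged from 200 to 16113 bp with a median of 1948.5 bp, against medians of 1358 bp for contigs of the other clusters and 470 bp for singletons. Only 16.5% of the contigs in large clusters were shorter than 500 bp, against 52.5% of singletons. Within a cluster the longest contig was 7.08 times the length of the shortest at the median, with a range from 1.1 to 52.9 times.

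Reads summed over a cluster and both libraries ranged from 130 to 69734 with a median of 2869, and 111 clusters had 1000 or more. Summed FPKM, the level per length and library size, ran from 4.68 to 5270 in the control library (median 44.3) and from 3.32 to 4280 in the OA-exposed library (median 47.2). The highest summed FPKM in both libraries belonged to CL85, with 5269 in control and 4280 in OA-exposed. Its 8 contigs were 232 to 818 bp long, and 2 of them, Contig1 and Contig2, held nearly all of its reads. CL82 (967 and 925), CL6170 (898 and 1253) and CL5544 (704 and 976) followed in the control library. In the OA-exposed library the order of these 3 was CL6170, CL5544, CL82.

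Together the large clusters took 374165 control reads (3.25% of the library) and 448048 OA-exposed reads (3.86%). The ratio of these shares was 1.19, or 0.249 on the log2 scale (95% counting interval 0.243 to 0.256). CL85, CL5544, CL6170 and CL82 held 32.3% of these reads, and without them the value was 0.281. A larger share in OA-exposed was not particular to large clusters. Clusters of 2 to 7 contigs took 37.4% of control and 41.7% of OA-exposed reads, and singletons 58.8% and 53.9%. Part of the scale was set by a single unigene outside the clusters, which took 13.8% of control and 10.7% of OA-exposed reads. TMM scaling, which discounts such unigenes, shifted every log2 ratio by -0.10 and lowered the pooled value to 0.148. Totals that left out this unigene gave 0.198, median-of-ratios factors 0.245 and upper-quartile factors 0.26. The ratio of summed FPKM, in which short contigs weigh more, was 0.107 on the log2 scale, so that the size of the pooled difference depended on the measure.

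Cluster by cluster, sums were higher in the OA-exposed library in 79 clusters and lower in 54, or in 70 and 63 with TMM scaling. The higher share was thus 59.4%, or 52.6% with TMM scaling. Without TMM scaling, 15410 of 28830 clusters and singletons with 10 or more reads were higher, and 3185 of the 6015 clusters among them. The log2 ratio of summed reads ran from -1.40 to 1.93, with quartiles of -0.25, 0.14 and 0.55, against -0.58, 0.11 and 0.73 over all clusters and singletons with 10 or more reads. The counting interval excluded an equal share in 115 clusters (68 higher, 47 lower) and included it in 18. This share of 86.5% compares with 46.3% of all clusters and singletons with 10 or more reads. At 1000 or more reads the shares were 88.3% (98 of 111) for large clusters and 88.6% for all units, which are close. Most sums stayed near each other, with 83 clusters within 1.5-fold, 19 between 1.5- and 2-fold higher and 10 between 1.5- and 2-fold lower. The median width of an interval to either side was 0.11 on the log2 scale, and the widest was 0.56.

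**Figure D1:**
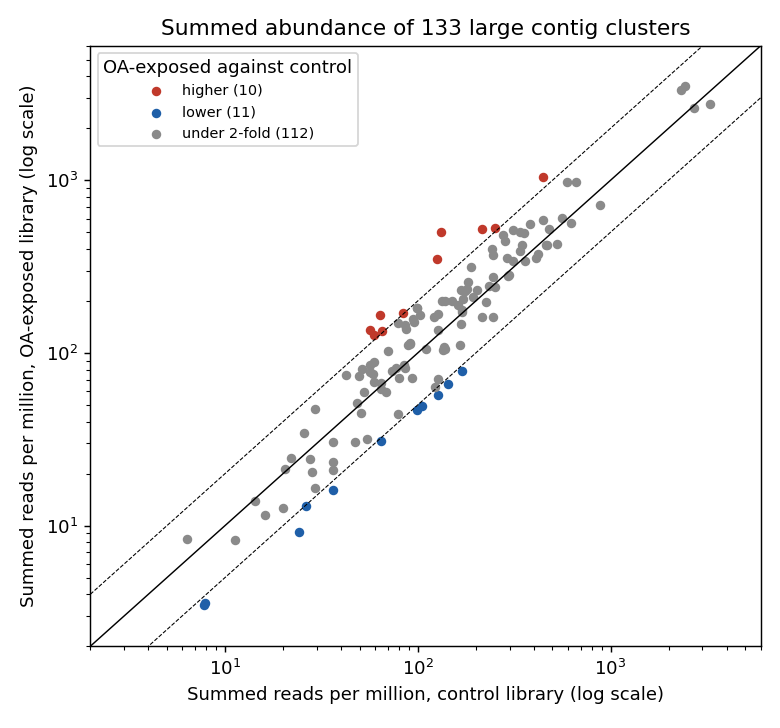
Summed reads of each of the 133 large clusters in the control library (x axis, log scale) and the OA-exposed library (y axis, log scale), both scaled to library size as the axes state, 1 point per cluster; the solid line marks equal values and the dashed lines 2-fold. The 10 red clusters lie at or above the upper 2-fold line, the 11 blue ones at or below the lower one and the 112 grey ones between them.

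In all, 10 large clusters (7.52%) were 2-fold or more higher and 11 (8.27%) 2-fold or more lower in the OA-exposed library. Over all clusters and singletons with 10 or more reads the corresponding shares were 16.7% and 15.0%, and over all clusters of any size they were 12.1% and 12.9%. Among clusters and singletons with 1000 or more reads, 12.8% were higher and 5.74% lower, against 9.01% (10) and 5.41% (6) of the 111 large clusters at that depth. At that depth the share of large clusters past 2-fold was thus lower than the background among higher sums and near it among lower ones. The former rests on 10 clusters, the background includes the large clusters, and the difference was not tested. The interval lay wholly past 2-fold for 7 of the higher and 4 of the lower clusters. The Audic-Claverie read test, which compares the libraries and not the conditions, called all 21 at an FDR of at most 0.001 (15.8%, against 7.52% of all units). Most units are singletons with few reads, and over all clusters the share was 15.6%, which is near that of the large ones. When edgeR's exact test was run with an assumed coefficient of variation of 0.2 between pools in place of the replicates, CL1857 alone remained called, and with 0.4 no cluster did.

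**Figure D2:**
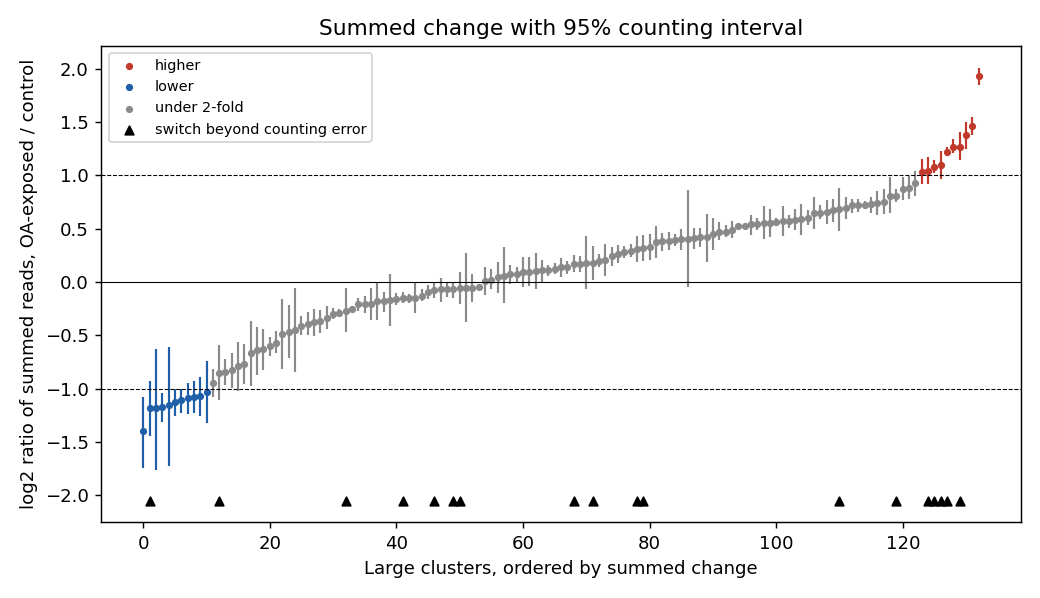
log2 ratio of summed reads (OA-exposed over control, y axis) for the 133 large clusters in order of their value (x axis, rank); bars are 95% counting intervals, dashed lines mark 2-fold, and triangles at the bottom mark the 18 clusters whose most abundant contig changed beyond counting error. Values run from -1.40 to 1.93, and 5 of the triangles stand under clusters 2-fold or more higher.

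CL1857 showed the highest ratio, with 1526 reads in control and 5867 in OA-exposed (3.82-fold, log2 1.93, interval 1.85 to 2.01). All of its 8 contigs, which were 2489 to 3341 bp long, were higher in the OA-exposed library, 7 of them by 2-fold or more. Here and below, contigs are counted as 2-fold or more higher or lower only with 10 or more reads in the libraries together and an interval that excludes an equal share. Contig7 went furthest, from 47 to 559 reads, and Contig6 least, from 105 to 182. The increase was therefore shared by the whole cluster. The contig with most reads in both libraries, Contig2, went from a share of 35.1% to one of 24.1%.

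CL98 had 1452 and 4034 reads (2.76-fold), and most of the gain lay in Contig7 and Contig5, its longest contigs. Contig7 (4892 bp) went from 573 to 1877 reads and Contig5 (4854 bp) from 467 to 1467. The other contigs did not follow length. Contig4 (3085 bp) had 111 and 267 reads and Contig8 (2004 bp) 193 and 309. Contig3 (3688 bp) had 52 and 69 and Contig6 (2477 bp) 35 and 25. CL3120, with 737 and 1926 reads (2.60-fold), was made of short sequences of 202 to 706 bp, and 10 of its 14 contigs with 10 or more reads were 2-fold or more higher by this count. Its dominant contig, Contig4, kept a near equal share, 49.5% and 46.5%, so that in this cluster the sum changed and the composition hardly did.

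CL413 (2485 and 6054 reads, 2.42-fold) showed the opposite arrangement. Contig11 of 10137 bp, the longest sequence of this cluster, went from 1480 to 4805 reads and from 59.6% to 79.4% of the cluster, and accounted for most of the gain. Because this contig is long, summed FPKM moved less, from 61.5 to 93.8, or 0.61 on the log2 scale, which is under 2-fold.

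The remaining clusters past 2-fold were CL710 with 651 and 1583 reads, CL310 with 5143 and 12107, CL303 with 684 and 1476, CL194 with 2901 and 6180, CL2213 with 751 and 1559, and CL412 with 961 and 1982. All of these except CL412 also changed their dominant contig. Ratios for CL303, CL194, CL2213 and CL412 lay between 1.03 and 1.10 on the log2 scale and were under 2-fold after TMM scaling. Across the 10 higher clusters, 92 of 107 contigs had 10 or more reads. Of these 92, 67 had a log2 ratio above 0, 47 were 2-fold or more higher and 4 were 2-fold or more lower with an interval that excluded an equal share.

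Sums that were lower in the OA-exposed library came mostly from clusters with fewer reads. The 11 lower clusters had 130 to 2869 reads in the libraries together, against 2160 to 17250 for the 10 higher ones. CL898 had the lowest ratio, with 281 control and 107 OA-exposed reads (2.65-fold lower, log2 -1.40, interval -1.74 to -1.08). One contig made up most of this difference, as Contig10 went from 185 to 47 reads, while Contig4 had 19 and 26. CL96 (90 and 40 reads) and CL5805 (91 and 41 reads) rested on so few reads that their intervals ran from -1.76 to -0.63 and from -1.73 to -0.61. By summed FPKM CL5805 was at 4.68 and 3.45, a log2 ratio of -0.44.

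The decrease was spread over the contigs in CL149 and CL441. CL149 had 1471 and 658 reads (2.25-fold lower), and all 9 of its contigs were lower, 7 of them by 2-fold or more. Its dominant Contig10 went from 567 to 263 reads at a share of 38.5% and 40.0%. CL441 had 1655 and 762 reads (2.19-fold lower), with shares of 41.3% and 40.0% for Contig3 and of 23.6% and 24.2% for Contig6. In both clusters the dominant contig thus kept its share while the sum was lower.

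CL1635 (1958 and 911 reads), CL6390 (1215 and 574), CL5739 (1136 and 542) and CL1014 (746 and 358) lay between 2.10- and 2.17-fold lower. Each held a contig that ran against the sum. Contig1 of CL1635 had 34 and 67 reads, Contig9 of CL5739 had 0 and 37, and Contig3 of CL1014 had 0 and 50. In CL6390 the opposing contigs differed little, with 39 and 47 reads for Contig1 and 29 and 33 for Contig5.

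CL3, with 418 and 186 reads, was the only lower cluster whose dominant contig changed beyond counting error. CL91, with 303 and 150 reads (2.04-fold lower), completed the 11 and lay outside the 10 lowest. Across the 11 lower clusters, 68 of the 79 contigs with 10 or more reads had a ratio below 0, 45 were 2-fold or more lower and 3 were 2-fold or more higher.

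The 10 clusters with most reads included 1 past 2-fold, CL310 with 5143 and 12107 reads, described above. CL85 had 37778 and 31956 reads (log2 -0.25) and CL82 31182 and 30401 (log2 -0.05). CL5544 had 28162 and 40604 reads and CL6170 26781 and 38811, each with a log2 ratio of 0.52. These latter clusters are both among the largest, with 42 and 21 contigs.

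Their equal ratios came about differently. In CL5544 a single contig, Contig9 of 3665 bp, went from 12440 to 21751 reads and from 44.2% to 53.6% of the cluster. Its Contig24 ran the other way, from 136 to 5 reads. In CL6170 the dominant contig held only 19.4% and 18.6% of the reads, and Contig1 (3352 and 6230), Contig5 (3189 and 5541) and Contig4 (5201 and 7229) all contributed. In CL82, whose sum hardly differed, Contig6 went from 3890 to 1173 reads while Contig12 went from 4690 to 8441, so that the sum hid a shift between its contigs.

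The remaining 5 of the 10 clusters with most reads were under 2-fold, with 7679 and 11389 reads in CL846, 6853 and 11359 in CL754, 10185 and 8388 in CL548, 7201 and 6518 in CL77, and 6451 and 7016 in CL3630. Only CL754, at 0.72 on the log2 scale, exceeded 1.5-fold among these 5. Clusters of 20 or more contigs were all within 2-fold, among them CL5752 with 24 contigs and 3611 and 5991 reads, CL6297 with 22 contigs and 3901 and 4522 reads, and CL57 with 20 contigs and 1584 and 1217 reads. By number of contigs, 7 of the 79 clusters with 8 to 10 contigs were 2-fold or more higher and 10 lower. None of the 35 clusters with 11 to 14 contigs was higher and 1 was lower, and of the 19 with 15 or more, 3 were higher and none lower.

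Single contigs, which have fewer reads than the sums, passed 2-fold more often. Of the 1476 contigs, 1249 had 10 or more reads. Of these, 239 (19.1%, against 15.7% of such contigs of all clusters) were 2-fold or more higher with an interval past an equal share, and 202 (16.2%, against 14.5%) were 2-fold or more lower. At least 1 such contig was present in 123 of the 133 clusters, against 46.9% of all clusters of 2 or more contigs. With 200 or more reads in each library the shares were 92.6% (113 of 122) for the large clusters and 47.4% for those of 2 to 7 contigs, which have fewer contigs to count. The direction of the sum was shared by 846 contigs (67.7%). Each contig is part of its sum, so some agreement is built in. Neither this share nor the count that follows was taken over the other clusters. In 9 clusters every contig with 10 or more reads moved with the sum, namely CL1857, CL2213, CL550 and CL5880 upward and CL149, CL368, CL441, CL91 and CL96 downward.

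In 63 clusters (47.4%) at least 1 contig was 2-fold or more higher and at least 1 was 2-fold or more lower, each with an interval that excluded an equal share. Over all clusters of 2 or more contigs the share was 4.74%, and over clusters of 2 to 7 contigs with at least 200 reads in each library it was 5.35%, against 47.5% (58) of the 122 large clusters at that depth. A cluster with more contigs has more chances to hold both, so these shares are not like for like. In 57 of the 63 the sum was under 2-fold.

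**Figure D3:**
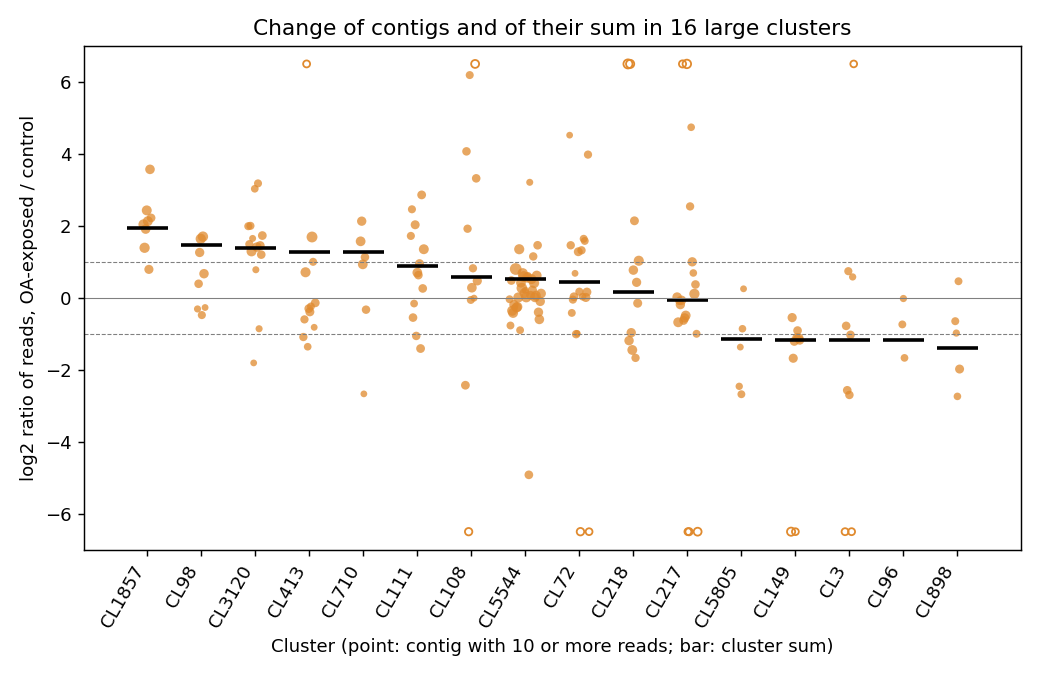
log2 ratio of reads (OA-exposed over control, y axis) of each contig with 10 or more reads (orange points, larger with more reads) and of the cluster sum (black bar) in 16 large clusters: the 5 highest, the 5 lowest, the 5 named for opposing contigs and the cluster with most contigs. Open circles at the edges are contigs listed at 0 in 1 library, and dashed lines mark 2-fold; the contigs of CL1857 all lie above 0, while those of CL108, CL218 and CL217 lie on both sides of a bar near 0.57, 0.17 and -0.07.

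CL218 was the plainest case of opposing contigs. It held 2351 control and 2669 OA-exposed reads (log2 0.17), in 11 long contigs of 6725 to 8908 bp. Contig14 went from 706 to 260 reads, Contig9 from 319 to 141 and Contig20 from 60 to 19. Contig26 went from 486 to 1002 reads and Contig19 from 34 to 153, and Contig3 was listed at 0 in control with 247 reads in OA-exposed. Gains of 1128 reads and losses of 827 reads, both scaled to the library totals, left a small net change.

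CL217 spread its 3408 and 3273 reads over 22 contigs, with 4 contigs 2-fold or more higher and 4 lower around a log2 ratio of -0.07. Its dominant Contig25 kept 27.7% and 31.4% of the reads, while Contig13 had 0 and 106 reads and Contig31 had 43 and 0. The opposing contigs each held under 10% of the reads. In CL108 (684 and 1024 reads) Contig1 went from 135 to 25 reads, Contig2 from 6 to 104 and Contig15 from 11 to 109, beside a dominant Contig7 with 298 and 365.

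CL72 had 22 contigs and only 651 and 895 reads, with 7 contigs 2-fold or more higher and 3 lower. Its dominant contigs held 21.3% and 15.8%, and Contig21 had 4 and 68 reads while Contig14 had 25 and 0. In CL111 (1140 and 2101 reads, log2 0.87) Contig17 went from 20 to 147 reads and Contig14 from 122 to 46. Its dominant Contig19 went from 300 to 773 and so moved with the sum.

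Some contigs had reads assigned in 1 library only. In 69 clusters 106 contigs were at 0 in control, and 100 contigs, in 58 clusters, were at 0 in OA-exposed. Most of these had few reads, and 13 of the first kind and 8 of the second had 50 or more reads in the other library. Contigs at 0 were not counted over all clusters, so whether large clusters held more or fewer of them was not tested. By counting error alone a count of 0 allows up to 3 reads, and the folds that follow are ratios to that floor. They do not cover the way RSEM divided reads among similar contigs of a cluster, so a 0 does not show absence.

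The most abundant contig at 0 in control was Contig1 of CL5952, with 0 and 524 reads, 173-fold higher against the floor. Its counting interval began at 7.13 on the log2 scale. Contig5 of CL548 (0 and 317 reads) and Contig11 of CL303 (0 and 316 reads) were each 105-fold higher against the floor. Their intervals began at 6.41 and 6.4. In the other direction, Contig10 of CL1948 had 117 and 0 reads, 39.3-fold lower, and Contig3 of CL2691 had 113 and 0 reads, 37.9-fold lower. The intervals of these contigs ended at -4.98 and -4.92. The summed log2 ratios of these clusters were 0.38, -0.29, 1.10, -0.06 and -0.15. In 4 of the 5 clusters a contig with reads assigned in 1 library only was thus part of a sum that lay within 1.5-fold, CL303 being the exception.

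The reads of a large cluster were seldom in 1 contig. The dominant contig, that with most reads, held 35.1% of the cluster at the median in control (13.1% to 88.5%) and 35.5% in OA-exposed (15.0% to 85.0%). It held over 50% in 22 clusters in each library, and in 15 clusters the same contig did so in both. The effective number of contigs, the inverse of the summed squared shares, had a median of 4.43 in control and 4.26 in OA-exposed. CL5880 was the most uneven in control, with 88.5% and 85.0% of its reads in Contig3. The most even was CL2691, in which the dominant contig held 13.1% of the control reads. Length favours a contig in a count of reads. The dominant contig was the longest of its cluster in 52 of the 133 clusters in control and 54 in OA-exposed. With a median of 10 listed contigs, a contig picked at random would be the longest in far fewer. These counts were not made for other clusters. The same contig led by reads and by FPKM in 97 and 91 clusters.

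The dominant contig differed between the libraries in 42 of the 133 clusters (31.6%), against 19.2% of all clusters of 2 or more contigs with 10 or more reads. Among clusters with at least 200 reads in each library it differed in 29.5% (36) of the 122 large clusters and in 17.5% of those of 2 to 7 contigs. Many switches were close, and in 24 of the 42 the reads of the contigs involved did not separate them in both libraries. A switch was counted as beyond counting error where the control-dominant contig held over 50% of the reads of the pair in control and under 50% in OA-exposed, each by the whole interval. This was met in 18 clusters (13.5%), against 4.58% of all clusters and, at the depth above, in 13.1% (16) of the large against 6.98% of the smaller clusters. With more contigs of near equal level a switch has more chances to occur, and this was not separated from the other differences between large and small clusters.

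**Figure D4:**
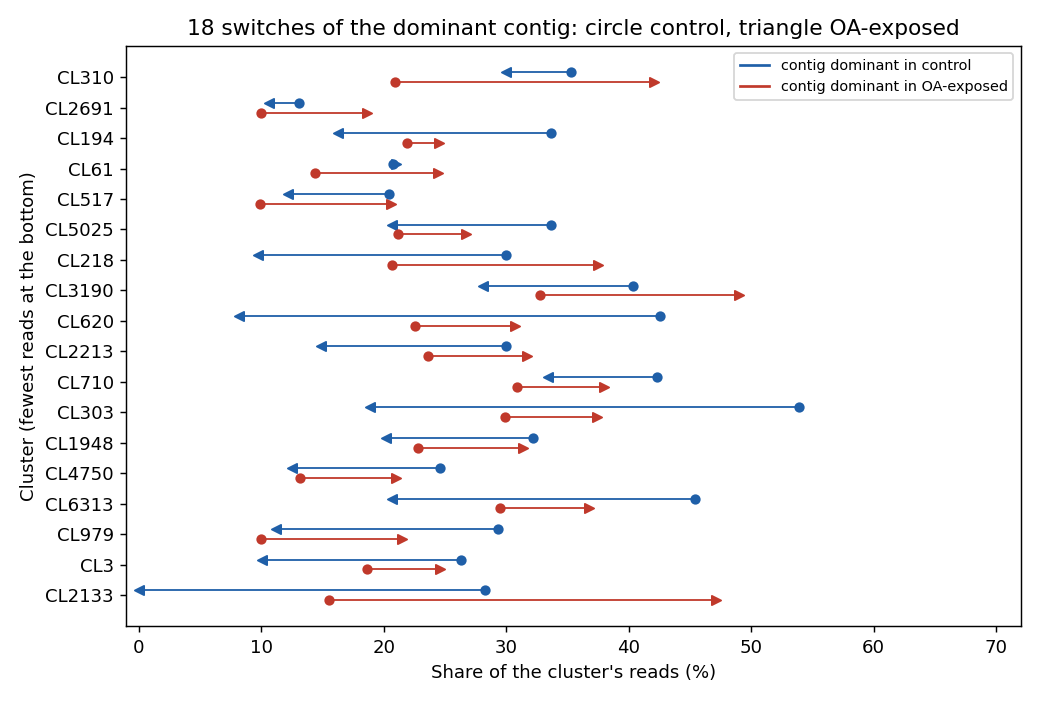
Share of the cluster's reads (x axis, %) held by the contig dominant in control (blue) and by the contig dominant in OA-exposed (red) in the 18 clusters with a switch beyond counting error, ordered by reads; circles are the control and triangles the OA-exposed library. The shares cross in every cluster, most widely for the blue contig of CL303 (53.9% to 18.9%) and CL620 (42.6% to 8.17%), while the blue contig of CL61 stays at 20.8% and 21.0%.

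In the weaker of the libraries, the leading contig of these 18 pairs had 1.14 to 1.93 times the reads of the other, so that no switch was as large as 2-fold in both libraries. The ratio reached 1.5 in 8 of the 18. The summed change of the same clusters was 2-fold or more higher in 5 (CL310, CL710, CL303, CL194, CL2213), lower in 1 (CL3) and under 2-fold in 12. The contig that took the lead had been second in control in 10, and the contig that lost it was second in OA-exposed in 5. In 3 clusters the pair simply exchanged ranks. Ranked by FPKM, 15 of the 18 clusters also switched, in 7 of them between the same contigs.

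CL979 had the widest margin, 1.93. Its Contig3 had 123 and 39 reads and Contig8 had 42 and 76, and the share of Contig3 in this pair went from 74.5% (interval 67.2% to 81.0%) to 33.9% (25.3% to 43.3%). In CL620 Contig6 (2328 bp) had 439 and 106 reads and Contig9 (5072 bp) had 233 and 396, while the sum stayed within 1.5-fold at 1030 and 1292 reads. In CL2133, which lies outside the switches with most reads and was picked after its values were seen, Contig4 had 96 and 0 reads and Contig1 had 52 and 89. The contigs of this cluster were all 1935 to 2122 bp long, so that they hardly differed in length.

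In CL310 and CL710, whose sums were higher, both contigs of the pair gained reads in OA-exposed and the lead changed through their unequal gains. In CL194 and CL2213, whose sums were also higher, the contig dominant in control hardly differed. Its log2 ratio was 0.03 in each, with intervals of -0.1 to 0.16 and -0.24 to 0.3. In CL310 Contig11 (4973 bp) went from 1814 to 3633 reads and Contig6 (4833 bp) from 1076 to 5100, and the share of Contig6 in the cluster went from 20.9% to 42.1%. CL194 had 978 and 1005 reads in Contig7 and 634 and 1514 in Contig3. In CL2213 Contig2 stood at 225 and 232 reads while Contig6 went from 177 to 494. CL710 had 275 and 529 reads in Contig3 and 201 and 602 in Contig1. CL303 differed, in that Contig2 had fewer reads in OA-exposed (368 and 279), Contig4 had more (205 and 551), and Contig11 was listed at 0 in control.

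Where the sum differed little, 1 contig of the pair was lower and the other higher. Contig10 of CL517 had 690 and 395 reads and Contig8 had 336 and 667, around sums of 3388 and 3239. In CL2691, with 5414 and 4924 reads in 16 contigs, Contig1 had 710 and 520 reads and Contig11 had 544 and 916. CL5025 had 982 and 577 reads in Contig2 and 617 and 745 in Contig3, with sums of 2917 and 2791. CL3190, with sums of 1044 and 1304, had 422 and 366 reads in Contig1 and 343 and 639 in Contig5. CL61, at 0.81 on the log2 scale, resembled CL310 and CL710, since both Contig8 (663 and 1180) and Contig13 (458 and 1373) gained.

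Composition was also measured as the percentage of reads that would have to move between contigs to turn the shares of 1 library into those of the other, in the 122 large clusters with at least 200 reads in each library. It ran from 2.41% to 44.1%, with quartiles of 11.2%, 16.5% and 22.9%. In 2279 clusters of 2 to 7 contigs at the same depth the quartiles were 2.05%, 5.48% and 12.7%, although single values there reached 88.6%. A cluster with more contigs has more shares that can differ, so these values are not like for like. Thinning the reads to 25% left the median of the large clusters at 15.8%.

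**Figure D5:**
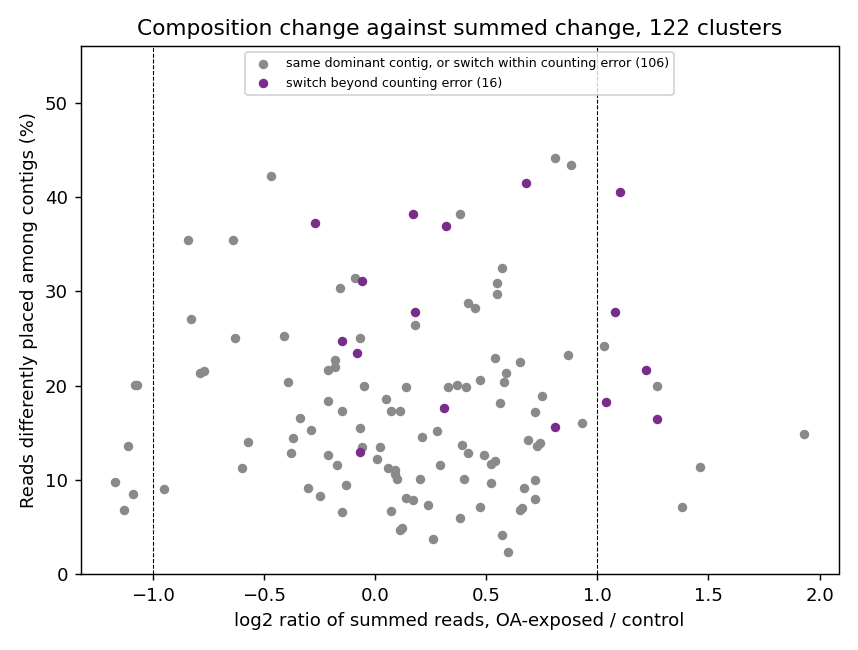
Percentage of reads differently placed among the contigs of a cluster (y axis) against the log2 ratio of its summed reads (OA-exposed over control, x axis) in 122 large clusters with at least 200 reads in each library; purple points are the 16 with a switch beyond counting error and dashed lines mark 2-fold. Composition changes of 30% or more occurred in 16 clusters, and they lie mostly between the dashed lines.

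A composition change of 30% or more was found in 16 of the 122 large clusters and one under 10% in 26. Among the 2279 clusters of 2 to 7 contigs at the same depth the counts were 97 and 1550. CL1389 was the highest at 44.1%, with 487 and 862 reads in 8 contigs of 4150 to 4881 bp. Contig1 went from 124 to 62 reads and Contig3 from 70 to 22, while Contig2 went from 38 to 247 and Contig7 from 16 to 120. The change was thus spread over several contigs of similar length. CL2764 reached 43.4% through 1 contig, as Contig11 of 6186 bp went from 317 to 1504 reads and from 27.8% to 71.2% of the cluster.

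In CL319 (42.2%) Contig6 went from 190 to 96 reads and Contig5 from 14 to 103, with sums of 325 and 237. In CL6313 (41.5%) Contig9 had 154 and 113 reads and Contig10 had 22 and 191. CL303 (40.5%), CL5952 (38.2%), CL218 (38.2%), CL979 (37.2%), CL620 (36.9%) and CL1345 (35.4%) completed the 10 highest. Of these 10 clusters only CL303 had a sum past 2-fold. At the other end, CL870 changed by 2.41% while its sum went from 2824 to 4306 reads, and its Contig4 held 74.9% and 76.5%.

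Gains and losses within the large clusters, at equal library size, came to 125260 and 54145 reads. In a typical large cluster part of the contig changes cancelled, and the net change was 65.1% of the gross change at the median. For clusters of 2 to 7 contigs, which have fewer contigs that can cancel, this median was 100%. The net change was under 50% of the gross change in 39 large clusters, a count that was not made for the smaller ones. The contigs of a cluster differ in length, and by the ratio of the longest to the shortest, a division made after the values were seen, both directions were present in 10 of 18 clusters (55.6%) with a ratio under 2, in 33 of 59 (55.9%) with a ratio of 2 to 10 and in 20 of 56 (35.7%) above. The median composition change in these groups was 17.3%, 20.2% and 12.6%, at median depths of 1878, 2129 and 4688 reads. Depth thus moved with these shares, and its part in them was not tested.

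Clusters just inside and just outside the threshold of 8 contigs had similar values. The 42 clusters with 8 contigs had log2 ratios from -1.18 to 1.93 with a median of 0.10, of which 4 were 2-fold or more higher and 5 lower. The 62 clusters with 7 contigs ran from -1.27 to 1.98 with a median of 0.21, of which 7 were higher and 3 lower. The dominant contig changed in 18 of the 42 and in 22 of the 62, beyond counting error in 6 and in 7. Median reads were 2036 and 3155.

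Sums of reads and sums of FPKM gave the same direction in 130 of the 133 clusters, the exceptions being CL5025, CL1320 and CL723 with ratios near 0. Their log2 ratios differed by 0.04 at the median and by over 0.3 in 6 clusters, most in CL5805, by 0.71. The sums of CL413 and CL5805 were past 2-fold by reads and under it by FPKM.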

How the data were processed

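The 2 gill libraries, control and OA-exposed, each stand for 1 group. The authors filtered reads with SOAPnuke, assembled them with Trinity, clustered transcripts with TGICL, mapped reads with Bowtie and quantified unigenes with RSEM. The authors deposited expected counts (estimated fragments per unigene, not normalized) and FPKM for each library. The deposited comparison gives unigene length and the authors' FPKM, fold change, p-value, FDR and call, of which only IDs and length were used. There were 0 columns of values without a sample.

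Expected counts were summed per cluster and divided by library totals (scipy 1.17.1, pandas 2.3.3, Python 3.11.15). Counts were rounded to whole reads for printing, intervals and the read test. Intervals are 95% Clopper-Pearson intervals, and since reads are not independent molecules they cover counting error only. The two-sided Audic-Claverie probability was adjusted by Benjamini-Hochberg over units with at least 1 read and called at an FDR of 0.001 and 2-fold. With 1 library per group, edgeR's quasi-likelihood test and DESeq2 could not be fitted. R 4.3.3 was used for median-of-ratios factors (DESeq2 1.42.0) and for the other scaling factors and the exact test with assumed variation (edgeR 4.0.16). Scripts were tested on simulated data. Figures were drawn with matplotlib 3.10.9.

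Members and lists were chosen with earlier results of these data known. Clusters named were the 10 with most contigs, most reads, highest and lowest sums (10 or more reads in each library), most reads among switches beyond counting error, and largest composition change, and 5 with opposing contigs and sums under 2-fold. Others are given for counts. Alternatives covered scaling, FPKM, contig length, read minimum, thinning to 25% of reads, contig number and dominance margin. RefSeq genes of this species could not be joined to the IDs, so that no sequence is shown.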

Additional observations from a re-analysis of the deposited data

How the results depend on the processing

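Of the 10 higher clusters, 6 remained with TMM factors, and 8 with totals that left out the most abundant unigene. Of the named clusters past 2-fold none changed direction under the scalings, summed FPKM or contigs of 500 bp or longer, and 6 came under 2-fold, CL194, CL2213, CL303 and CL412 with TMM and CL413 and CL5805 with FPKM. The pooled log2 ratio of 0.249 became 0.148 with TMM, 0.26 with upper-quartile factors, 0.198 without the most abundant unigene and 0.107 with FPKM. The median composition change of 16.5% became 19.3% with FPKM. Thinning to 25% of reads left 9 switches beyond counting error in place of 18 (8 shared) and 37 clusters with opposing contigs in place of 63, so depth limits both counts. A dominance margin of 1.5 left 9 of the 42 switches and 8 of the 18. In place of the 21 calls of the read test, edgeR's exact test with an assumed coefficient of variation of 0.1, 0.2 and 0.4 gave 19, 1 and 0. A threshold of 6 contigs gave 29 higher and 22 lower clusters, 50 calls of the read test, 93 switches (40 beyond counting error), 99 with opposing contigs, a pooled ratio of 0.197 and a composition change of 13.9%. A threshold of 10 contigs gave 5 and 2 clusters, 7 calls, 22 switches (11 beyond), 38 with opposing contigs and 0.326. No paired analysis was possible because each group had 1 library, and for the same reason no library could be left out.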
